A study of Mus musculus with 16 samples.

Results

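Mouse macrophages challenged for 1 hr with bacterial lipopolysaccharide (LPS), with or without the glucocorticoid dexamethasone (Dex), changed only a few of the hypoxia response and glycolysis genes examined here, and those few did not move together. Dex raised *Pfkfb3* above LPS alone by 5.39-fold in wild type (WT) cells and 7.09-fold in NELF-B knockout (KO) cells. It lowered *Hilpda* by 1.62-fold and 1.54-fold in the same comparisons. The genes described are 8 of the 9614 in the deposited expression table, chosen by name for their part in these pathways: *Hif1a*, *Egln1*, *Hilpda*, *Bnip3*, *Hk2*, *Pfkfb3*, *Pgk1* and *Ldha*. These genes, and the lists of related genes used later, were chosen with earlier results of these data known. Counts of calls and ranks among them are therefore not independent evidence. All 8 were measured in every library.

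Cells sense falling oxygen through the hypoxia-inducible factor (HIF), whose alpha subunit is made continuously and is destroyed when prolyl hydroxylases mark it for degradation. When oxygen is short the alpha subunit escapes, pairs with its beta partner and switches on genes for glucose uptake, glycolysis, lactate production and the clearance of mitochondria. Macrophages use the same system in normal oxygen: bacterial products are known to raise HIF-1 alpha and to push these cells towards glycolysis over hours, and glucocorticoids are known to oppose much of the inflammatory program through the glucocorticoid receptor (GR).

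The libraries were poly(A) RNA-seq of macrophages grown from the bone marrow of male C57BL/6 mice aged 8 weeks. WT mice were LysM-Cre:NELF-B wt/wt and KO mice were LysM-Cre:NELF-B fl/fl. By these genotypes every group carried LysM-Cre, which drives Cre recombinase in myeloid cells, and the groups differed in the floxed allele of the NELF-B gene. NELF-B is a subunit of the negative elongation factor, which holds RNA polymerase II paused shortly after it starts transcription. Cells of 3 mice per genotype received LPS (10 ng/ml) or LPS with Dex (100 nM) for 1 hr, and untreated cells were sequenced from 2 of the 3 mice of each genotype. Mice were told apart by a number in the sample descriptions, which the labels do not state to be an animal, and are lettered A, B and C in each genotype, and each C mouse had no untreated library among those analysed. The series asks how GR represses inflammatory genes in macrophages with and without NELF, and for the 8 genes this gives 3 questions: what LPS changed, what Dex changed within the same mouse, and whether the genotype altered either.

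Read counts recovered from the deposited values gave 2.5e+07 to 4.97e+07 reads per library on the genes of the table (median, 3.42e+07), and the 8 genes held between 446 and 54683 reads in a library. Levels below are log2 CPM, where CPM is a read count scaled to a common library size, unless stated otherwise. *Nelfb* was 5.59 to 6.21 in WT libraries and 3.27 to 4.38 in KO libraries, with no overlap. Reads from exons outside the floxed exon can still be counted. In KO cells *Tnf* rose by 6.06 log2 units with LPS and *Tsc22d3*, a classical glucocorticoid target, rose by 3.82 with Dex. All 8 macrophage markers examined were expressed, with a summed level of 7942 to 12931 CPM, and none of 4 lymphocyte markers and 1 of 7 neutrophil markers (*S100a8*, 5.46 to 41.5 CPM) were among the genes of the table. The 4 stromal markers summed to 49.2 to 145 CPM. The untreated library of WT mouse A stood apart, its correlations with the other libraries being 0.830 to 0.909, while those others had 0.924 to 0.993 between them. It also had the lowest sum of macrophage markers, 7942 CPM against 9572 CPM or more elsewhere. In bulk RNA of this kind, fewer cells of a type and less RNA per cell cannot be told apart.

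The core of the DNA element that HIF binds is ACGTG or GCGTG. Since the 8 genes responded so differently, the cores in their promoters are shown before the values. RefSeq promoter sequences (GRCm38.p6, the mm10 build) matched all 8 genes, with 11 annotated starts in all. Within the 250 bases before a start, ACGTG occurred on either strand for 9 of these 11 starts, and in at least 1 promoter of each gene. It occurred in 16.6% of 32851 mouse promoters of the same length, and in 22.8% of the 9476 promoters of genes in the table. GCGTG occurred in 28.2% of all promoters and in 45.8% of those of genes in the table. Either core occurred for 10 of the 11 starts, against 38.6% of all promoters and 57.4% of those of genes in the table. The downstream start of *Ldha* had GCGTG but no ACGTG. The 30 bases around the ACGTG nearest each start are given here 5′ to 3′, turned so that the core reads forward, with the core in capitals and the strand of the printed sequence named.

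Hif1a, chr12:73907785-73907814, plus strand: tggctgagagcaACGTGggctggggtgggg

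Egln1, chr8:124949305-124949334, minus strand: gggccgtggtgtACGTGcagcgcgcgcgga

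Hilpda, chr6:29272571-29272600, plus strand: gatggccagcggACGTGccccagggcgagc

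Bnip3, chr7:138909596-138909625, minus strand: cgcacgcgccgcACGTGccacacgctcccc

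Hk2, chr6:82774490-82774519, plus strand: ccccggacagtgACGTGgatgtgctcattg

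Pfkfb3 upstream start, chr2:11553972-11554001, minus strand: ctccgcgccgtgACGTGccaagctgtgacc

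Pfkfb3 downstream start, chr2:11502125-11502154, minus strand: acccttctctccACGTGaaagggggctggg

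Pgk1, chrX:106186956-106186985, minus strand: gagactagtgagACGTGctacttccatttg

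Ldha, chr7:46845757-46845786, minus strand: ggagcccagcggACGTGcgggaacccacgt

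These cores lay 34 to 131 bases before the annotated start whose promoter was searched, nearest in *Ldha* and farthest in *Pgk1*. Some of these starts and their cores, as in *Hif1a* and *Ldha*, lie inside the span of the gene. *Hilpda* (chr6:29272488-29275446, plus strand) has 2 annotated starts, and so does *Pfkfb3* (chr2:11471433-11554077, minus strand). The *Hilpda* core shown is 43 bases before its downstream start, and no ACGTG or GCGTG lay in the 250 bases before its upstream start. The GR hexamer AGAACA, which occurred in 16.1% of all promoters and in 10.3% of those of genes in the table, was in none of the 11 windows. A match or its absence describes the letters of these windows and not the binding of a factor. *Pfkfb3* and *Hilpda*, which moved in opposite directions with Dex, both carried the core, and so did the genes that did not pass any test.

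Per kilobase of exon, *Ldha* stood far above the rest in LPS-treated cells, at 253 ± 38.2 CPM per kb in WT and 225 ± 7.67 in KO cells (mean ± SD, n = 3 each). *Ldha* encodes the lactate dehydrogenase subunit that makes lactate from pyruvate. *Hilpda* followed at 70.0 ± 11.5 and 87.4 ± 20.0 CPM per kb. Then came *Pgk1* at 28.5 ± 3.71 and 28.3 ± 1.67 CPM per kb and *Hif1a* at 25.6 ± 3.99 and 27.7 ± 3.09, which did not differ from each other beyond their spread. The remaining genes, *Hk2*, *Pfkfb3*, *Bnip3* and *Egln1*, lay between 12.4 and 21.1 CPM per kb on average. Neighbours among them were within their spread, except that *Bnip3* (18.0 ± 1.61) stood above *Egln1* (13.9 ± 1.09) in KO cells. In untreated cells (n = 2 per genotype) *Ldha* was at 470 and 207 CPM per kb in WT mice A and B and at 229 ± 21.1 in KO mice, and *Hilpda* was lower in the order, at 27.4 ± 20.1 and 22.2 ± 9.55, beside *Pgk1* at 33.9 ± 13.9 and 26.5 ± 0.583. With Dex, *Pfkfb3* moved from this low group to the second place, at 87.6 ± 26.1 CPM per kb in WT and 151 ± 42.8 in KO cells. Only uniquely mapped reads were counted, and *Ldha* and *Pgk1* have near-identical processed pseudogenes in the mouse genome, so that their levels are uncertain. The plot of all libraries shows the levels on the log2 scale.

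**Figure D1:**
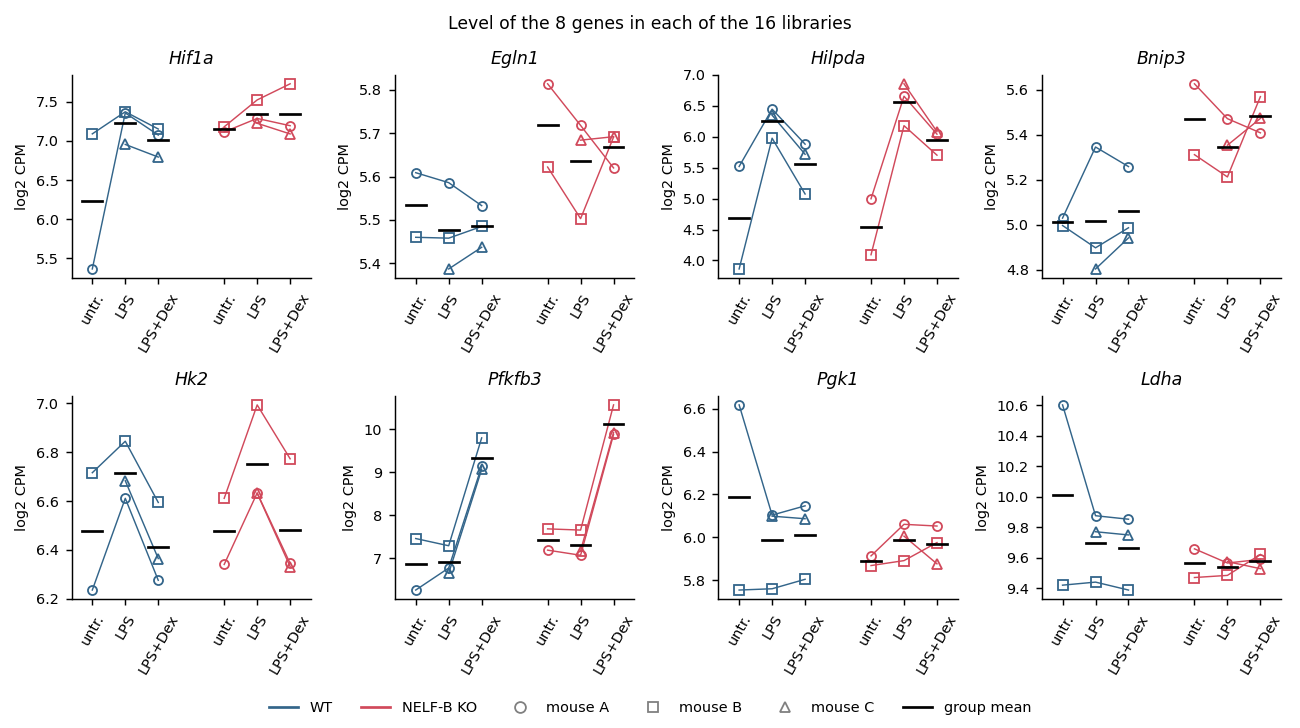
Level of the 8 genes in log2 CPM (y axis, own range for each gene) in the 16 libraries, by treatment (x axis) and genotype (blue, WT and red, NELF-B KO). Symbols are mice, thin lines join libraries of the same mouse and black bars are group means. *Pfkfb3* lay between 6.26 and 7.68 in all untreated and LPS libraries and between 9.06 and 10.57 in all LPS+Dex libraries.

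LPS for 1 hr raised *Hilpda*, which encodes a lipid droplet protein that inhibits triglyceride breakdown, and no other of the 8 genes passed the test. In untreated WT cells *Hilpda* was at 5.52 in mouse A and 3.86 in mouse B, and with LPS it was at 6.45, 5.98 and 6.35 in mice A, B and C. In KO cells it was at 5.00 and 4.09 untreated and at 6.66, 6.18 and 6.86 with LPS. LPS libraries thus lay above untreated ones in both genotypes with no overlap. With so few libraries this alone is weak evidence, and how many of all genes separated like this was not computed. The fitted change was +2.02 in KO cells (SE 0.46, 4.05-fold, limma, adjusted p = 0.0583), which passed the threshold, and +1.57 in WT cells (SE 0.46, 2.96-fold, adjusted p = 0.139), which did not. The difference between the genotypes was +0.45 (SE 0.65, adjusted p = 0.833), so that a different response was not shown. *Hilpda* is among the LPS-induced genes that the study itself chose on these samples, and its rise is therefore not independent evidence.

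Within a mouse, *Hilpda* rose by 0.93 and 2.11 log2 units in WT mice A and B and by 1.66 and 2.09 in KO mice A and B. When each mouse served as its own block in a fit of all 16 libraries, the change was 2.84-fold in WT cells (adjusted p = 0.00399) and 3.76-fold in KO cells (adjusted p = 0.00102), both past the threshold. The call in KO cells was lost in 7 of the 10 fits that left out 1 library (adjusted p, 0.103 to 0.620), and the difference in WT cells turned on the untreated library: it was 5.26-fold without that of mouse A (adjusted p = 0.0109, past the threshold) and 1.67-fold without that of mouse B (adjusted p = 0.128).

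A gene was called with LPS at an adjusted p under 0.1 and a change over 1.5-fold. By this rule 4.45% of all genes were called in WT and 3.49% in KO cells, against 0 and 1 of the 8 genes. The median change over the 8 genes was +0.02 in WT and +0.04 in KO cells, and over all genes it was +0.02 and -0.01. No gene of the table passed the test of the difference in LPS response between genotypes (0%, limma, with 44 genes at an unadjusted p under 0.05, and also 0 with voom in limma on the recovered reads).

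The transcript of *Hif1a*, the oxygen-regulated alpha subunit itself, turned on a single library. Untreated WT cells of mouse A had *Hif1a* at 5.37, whereas the other untreated libraries had it at 7.09 (WT mouse B), 7.12 (KO mouse A) and 7.18 (KO mouse B). All LPS libraries lay between 6.96 and 7.52. The fitted LPS change was +1.00 in WT cells (SE 0.41, adjusted p = 0.264) and +0.20 in KO cells (SE 0.41, adjusted p = 1). Within WT mice *Hif1a* was 1.99 higher with LPS in mouse A and 0.28 higher in mouse B, on the log2 scale, and in KO mice A and B it was 0.17 and 0.34 higher. With the mouse as a block the WT change was +1.12 (adjusted p = 0.0566), and it was +1.86 (adjusted p = 0.000275) when WT mouse A supplied the only untreated WT library. Without that library it was +0.14 (adjusted p = 0.822). It was the same library that held the highest *Ldha*, at 10.60 against 9.39 to 9.88 in the other 15, and the highest *Pgk1*, at 6.62 against 5.76 to 6.15. Its *Pfkfb3* was the lowest of all 16, at 6.26. The part of its lower macrophage marker sum in these values was not tested.

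*Pfkfb3* encodes the enzyme that makes fructose 2,6-bisphosphate, the strongest activator of phosphofructokinase, and it did not pass the LPS test (+0.05, SE 0.36 in WT and -0.14, SE 0.36 in KO cells). *Hk2*, the inducible hexokinase that traps glucose as glucose 6-phosphate, was higher with LPS in all 4 mice with both libraries, by 0.38 (A) and 0.13 (B) in WT mice and by 0.29 and 0.38 in KO mice. Its fitted changes of +0.24 and +0.28 (SE 0.19 each) had adjusted p of 0.466 in WT and 1 in KO cells. *Egln1*, the main prolyl hydroxylase that marks HIF alpha subunits, and *Bnip3*, a mitophagy protein of the mitochondrial outer membrane, gave LPS changes between -0.12 and +0.01. The glycolytic enzymes *Pgk1* and *Ldha* gave -0.20 and -0.32 in WT cells and +0.09 and -0.02 in KO cells. In WT cells the 95% interval of *Pgk1* reached from -0.73 to +0.33 and that of *Ldha* from -0.996 to +0.36. Changes within these ranges were therefore not excluded.

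**Figure D2:**
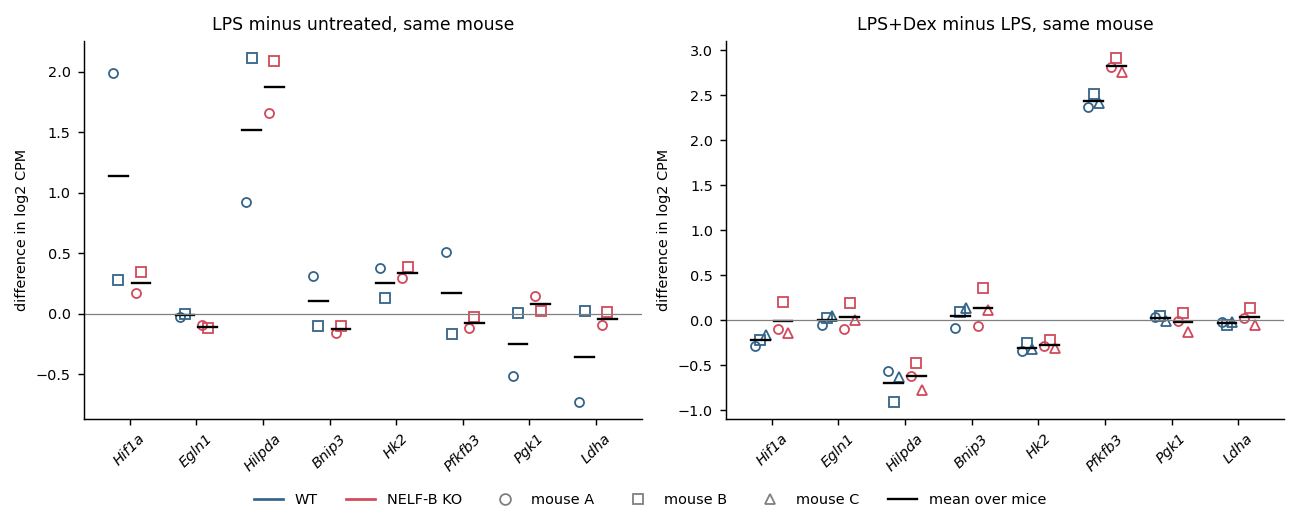
Change of the 8 genes within a mouse, as the difference in log2 CPM (y axis) between LPS and untreated cells (left, 2 mice per genotype) and between LPS+Dex and LPS cells (right, 3 mice per genotype). Symbols are mice, blue is WT, red is NELF-B KO and black bars are means over mice. With Dex, *Pfkfb3* lay between 2.37 and 2.91 and *Hilpda* between -0.90 and -0.48 in the 6 mice.

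Dex given with LPS for 1 hr raised *Pfkfb3* in every mouse. With LPS alone it was at 6.77, 7.29 and 6.65 in WT mice (always in the order A, B, C), and with LPS and Dex at 9.14, 9.80 and 9.06. In KO mice A, B and C it went from 7.07, 7.65 and 7.17 to 9.88, 10.57 and 9.92. The lowest Dex library thus lay more than 1 log2 unit above the highest LPS library. The same-mouse rise was 5.16-fold, 5.70-fold and 5.34-fold in WT mice and 7.02-fold, 7.54-fold and 6.74-fold in KO mice. The fitted change was +2.43 in WT cells (SE 0.04, 95% interval 5.08-fold to 5.72-fold, adjusted p = 1.1e-12) and +2.83 in KO cells (SE 0.04, 6.69-fold to 7.52-fold, adjusted p = 2.3e-13). By p-value *Pfkfb3* ranked 1 among the 9614 genes in each genotype, and by size of increase it ranked 6 in WT and 5 in KO cells. Against the untreated library of the same mouse, LPS and Dex together gave 7.36-fold and 5.07-fold more *Pfkfb3* in WT mice A and B and 6.47-fold and 7.39-fold more in KO mice A and B.

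*Hilpda* fell with Dex in every mouse. It was at 5.88, 5.08 and 5.72 in WT mice and at 6.04, 5.70 and 6.08 in KO mice with LPS and Dex. Each of these values was below the LPS value of the same mouse, by 0.57, 0.90 and 0.63 in WT and by 0.61, 0.48 and 0.77 in KO mice. The fitted change was -0.70 in WT cells (SE 0.06, 1.62-fold lower, adjusted p = 6.9e-06) and -0.62 in KO cells (SE 0.06, 1.54-fold lower, adjusted p = 1.7e-05). Between the genotypes these changes differed by +0.08 (SE 0.09, limma, adjusted p = 0.890), so that a different fall was not shown. Dex libraries still lay above the untreated library of the same mouse, by 0.36 (A) and 1.21 (B) in WT mice and by 1.04 and 1.61 in KO mice. *Hilpda* was also among the genes that the study chose on these samples for repression by Dex, and its fall is not independent evidence. The call depended on the fit. Without the mouse as a block the adjusted p was 0.430 in WT and 0.551 in KO cells, and in a blocked fit of all 16 libraries it was 0.202 and 0.268.

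Smaller differences were seen for *Hk2* and, in WT cells, for *Hif1a*. *Hk2* was lower with Dex in all 6 mice, by 0.34, 0.25 and 0.32 in WT mice and by 0.29, 0.22 and 0.30 in KO mice. The fitted changes of -0.30 (SE 0.04, adjusted p = 6.0e-05) and -0.27 (SE 0.04, adjusted p = 0.000135) were under the 1.3-fold that a Dex call required. In a blocked fit of all 16 libraries the adjusted p of *Hk2* was 0.0687 in WT and 0.0982 in KO cells, and without the block it was 1 in both. *Hif1a* was lower by 0.28, 0.22 and 0.16 in WT mice A, B and C (fitted -0.22, SE 0.06, adjusted p = 0.0200), also under that fold, and in both of those other fits its adjusted p was 1. In KO mice A and C it was lower by 0.09 and 0.14 and in mouse B it was higher by 0.21 (fitted -0.01, SE 0.06, adjusted p = 0.958). The difference between the genotypes was +0.21 (SE 0.08, adjusted p = 0.654).

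The other 4 genes stayed near 0 with Dex in both genotypes, with no adjusted p under 0.1. *Pgk1* was between -0.13 and +0.08 and *Ldha* between -0.05 and +0.14 in the 6 mice. *Egln1* ranged from -0.10 to +0.19 and *Bnip3* from -0.09 to +0.36, in each case with the highest value in KO mouse B. The 95% intervals were widest for *Bnip3*, from -0.10 to +0.20 in WT and from -0.01 to +0.29 in KO cells.

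At an adjusted p under 0.1 with a change over 1.3-fold, Dex called 2 of the 8 genes in each genotype, 1 up and 1 down, against 4.56% of all genes in WT and 5.32% in KO cells. At the same adjusted p with any fold, 4 of the 8 genes in WT and 3 in KO cells passed, against 12.5% and 17.7% of all genes. Since the 8 genes were chosen with earlier results of these data known, these counts describe the 8 genes only. The median change over the 8 genes was -0.01 in WT and +0.01 in KO cells, and over all genes it was -0.0070 and -0.0023.

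The Dex response of *Pfkfb3* was larger in KO than in WT cells. The difference was +0.40 on the log2 scale (SE 0.06, 1.31-fold, adjusted p = 0.0539), and the 3 KO changes (2.81, 2.91 and 2.75 in mice A, B and C) lay above the 3 WT changes (2.37, 2.51 and 2.42). The share of all genes whose changes separated in this way was not computed. In the test of the difference, *Pfkfb3* was 1 of 2 genes called among all genes (0.0208%). The other was *Dusp2*, at -0.47 (adjusted p = 0.00452). The call depended on the fit. It was lost when any of 4 of the 6 mice was left out (WT A, adjusted p = 0.211, WT C, 0.208, KO A, 0.152 and KO C, 0.123), although the difference stayed between +0.35 and +0.43. In the fits without the mouse as a block and with all 16 libraries the adjusted p was 1.

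Between genotypes at the same treatment, 3 of the 8 genes were higher in every KO than in every WT library with LPS and Dex: *Pfkfb3*, *Bnip3* and *Egln1*. Such separation was common, since 8.93% of all genes lay wholly higher and 8.83% wholly lower in KO cells with LPS and Dex. With LPS alone 0 of the 8 genes separated, against 5.91% of all genes higher and 7.82% lower. A genotype call needed an adjusted p under 0.05 and a difference beyond 1.5-fold, and no gene of the table was called in untreated, LPS or LPS+Dex cells (0% each, limma, with 37, 811 and 1090 genes at an unadjusted p under 0.05, and with 0, 1 and 3 calls by voom in limma).

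*Pfkfb3* was 0.74, 0.77 and 0.86 higher in KO than in WT mice A, B and C with LPS and Dex (fitted +0.79, SE 0.26, adjusted p = 0.302). With LPS alone it was 0.30, 0.37 and 0.52 higher (fitted +0.40, SE 0.21, adjusted p = 0.756). The B mouse was the highest of its genotype in both treatments. With the letter as a block, *Pfkfb3* passed with LPS and Dex (+0.79, SE 0.07, adjusted p = 0.0327). The labels of KO mouse B and the untreated label of WT mouse B carry a common tag. The LPS and LPS+Dex labels of WT mouse B lack it. Labels of the C mice carry tags of 1 form, and the A mice have no tag in common. No label says what these tags mark. *Bnip3* was higher in KO cells of every letter and treatment, by 0.60 and 0.32 in untreated cells of mice A and B, by 0.13, 0.32 and 0.55 in LPS cells and by 0.15, 0.58 and 0.53 in LPS+Dex cells of mice A, B and C. Its fitted differences were +0.46 (SE 0.27, adjusted p = 0.889), +0.33 (SE 0.16, adjusted p = 0.681) and +0.42 (SE 0.11, adjusted p = 0.220). *Egln1* was higher in KO cells in the same 8 pairs, by 0.05 to 0.30. Its fitted differences were +0.18, +0.16 and +0.18, with adjusted p of 0.437 or more. The 8 pairs reuse the same mice across treatments, and the mice of a letter are different animals. They are therefore not 8 separate agreements for *Bnip3* or *Egln1*. The share of all genes with the same direction in all 8 pairs is not given here. *Hilpda* was higher by 0.20 to 0.51 with LPS and by 0.16 to 0.63 with LPS and Dex, with fitted differences of +0.31 (adjusted p = 0.824) and +0.39 (adjusted p = 0.581). In untreated cells it was lower by 0.52 in the A mice and higher by 0.23 in the B mice (fitted -0.15, adjusted p = 0.951).

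*Hk2*, *Pgk1* and *Ldha* had no common direction in any treatment. In untreated cells the difference of *Ldha* was -0.94 in the A mice and +0.05 in the B mice, that of *Pgk1* was -0.70 and +0.11, and that of *Hif1a* was +1.75 and +0.09, so that the A values were those of the library that stood apart. Beside these comparisons, the summed stromal markers were 94.4 to 122 CPM in WT and 105 to 145 CPM in KO libraries with LPS and Dex, and *S100a8* was 7.84 to 24.2 CPM and 20.6 to 41.5 CPM. The macrophage markers summed to 9572 to 12530 CPM in WT and 12350 to 12690 CPM in KO libraries. The part of these markers in the genotype differences was not tested.

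**Figure D3:**
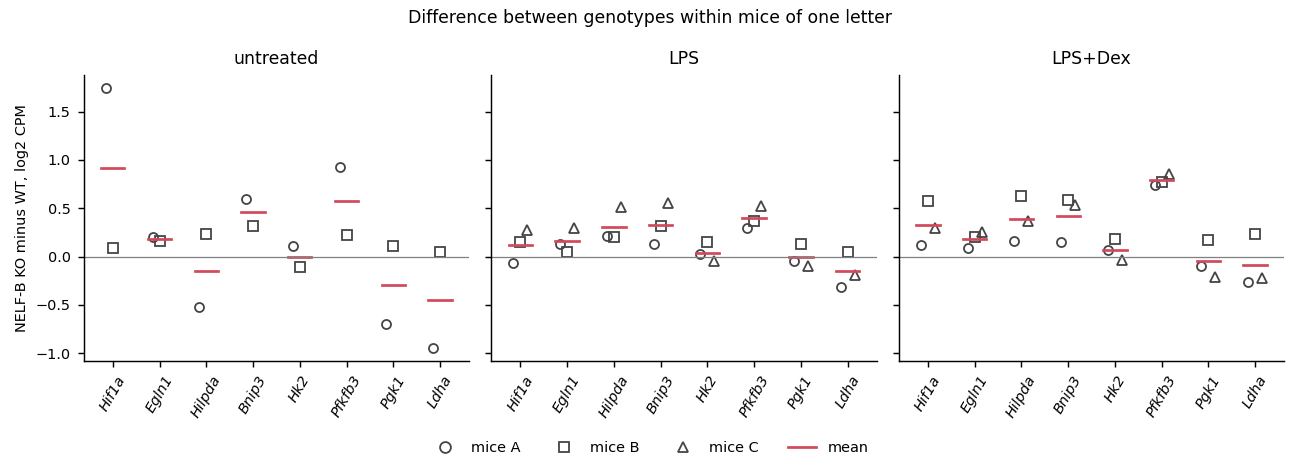
NELF-B KO minus WT difference in log2 CPM (y axis) of the 8 genes within mice of the same letter, in untreated cells (left, A and B), LPS cells (middle) and LPS+Dex cells (right). Symbols are letters and red bars are means. *Pfkfb3* lay between 0.74 and 0.86 with LPS and Dex, and in untreated cells the A mice gave the extreme values of *Hif1a*, *Pgk1* and *Ldha*.

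The rest of the pathway was read from 3 lists. Over all genes, LPS called 3.36% up in WT and 2.8% in KO cells, and Dex called 2.38% up and 2.17% down in WT and 2.77% up and 2.55% down in KO cells. Of 14 other genes of the HIF system, 13 were in the table. *Cited2*, which competes with HIF for its coactivators, rose with LPS by 2.69 in WT (SE 0.31, adjusted p = 0.00116) and by 2.86 in KO cells (SE 0.31, adjusted p = 0.000800) and was the sole call. Dex raised 3 of the 13 in each genotype and lowered none. *Hif3a*, the alpha subunit best known as a brake on the other alpha subunits, rose by 1.79 in WT and 1.53 in KO cells (SE 0.13 each, adjusted p = 8.9e-07 and 3.0e-06). *Cited2* rose with Dex by 1.32 and 1.16 (SE 0.07 each), and the prolyl hydroxylase gene *Egln2* by 0.60 and 0.61 (SE 0.05 each). The transcripts raised by Dex among the 13 thus belonged to a coactivator competitor, an alpha subunit and a prolyl hydroxylase. The list's median change with Dex was +0.05 in WT and +0.12 in KO cells, and with LPS -0.15 and +0.01.

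Of 23 other hypoxia target genes, 20 were in the table. *Vegfa*, which encodes the angiogenic growth factor, was the sole call with LPS. It rose by 1.22 in WT (SE 0.24, adjusted p = 0.0217) and 1.48 in KO cells (SE 0.24, adjusted p = 0.00827). Like *Hilpda*, it fell with Dex, by 0.81 in WT and 0.69 in KO cells (SE 0.05 each, adjusted p = 1.4e-07 and 4.9e-07). *Bhlhe40*, a transcriptional repressor gene, fell by 0.738 and 0.695 with Dex (SE 0.05 each). *Ddit4*, which encodes an inhibitor of mTORC1 and is a known GR target, rose by 1.62 and 1.70 (SE 0.19 each). Dex thus lowered 2 of the 20 genes, *Vegfa* and *Bhlhe40*, in both genotypes. The list's median change with Dex was -0.0013 in WT and +0.03 in KO cells. *Vegfa* was also higher in KO than in WT cells, by 0.92 with LPS and 1.04 with LPS and Dex (SE 0.15 and 0.11, adjusted p = 0.216 and 0.0889), short of the threshold, which it passed with LPS and Dex when the letter was a block (adjusted p = 0.0339).

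Of 23 other glycolysis genes, 21 were in the table. *Slc2a1*, the glucose transporter gene, was the sole call with LPS, at +1.05 in WT (SE 0.19, adjusted p = 0.0152) and +0.95 in KO cells (SE 0.19, adjusted p = 0.0282). Dex lowered it by 0.47 and 0.49 (SE 0.05 each, adjusted p = 3.4e-05 and 1.7e-05), and it also lowered the enolase gene *Eno2* by 0.43 in WT cells (adjusted p = 0.0115), with -0.34 in KO cells, under the fold required. Dex raised none of the 21. *Gapdh* was lower with Dex in the 3 WT mice (fitted -0.13, SE 0.04, adjusted p = 0.0859) and higher in the 3 KO mice (+0.21, SE 0.04, adjusted p = 0.00405), both under the fold required, and the difference of +0.33 had an adjusted p of 0.138. *Gapdh* too has many processed pseudogenes, so that its level is uncertain. The list's median change with LPS was -0.14 in WT and +0.10 in KO cells, and with Dex -0.03 and -0.02. *Pfkfb3* thus had the highest Dex change among the 8 genes and the 3 lists in both genotypes.

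**Figure D4:**
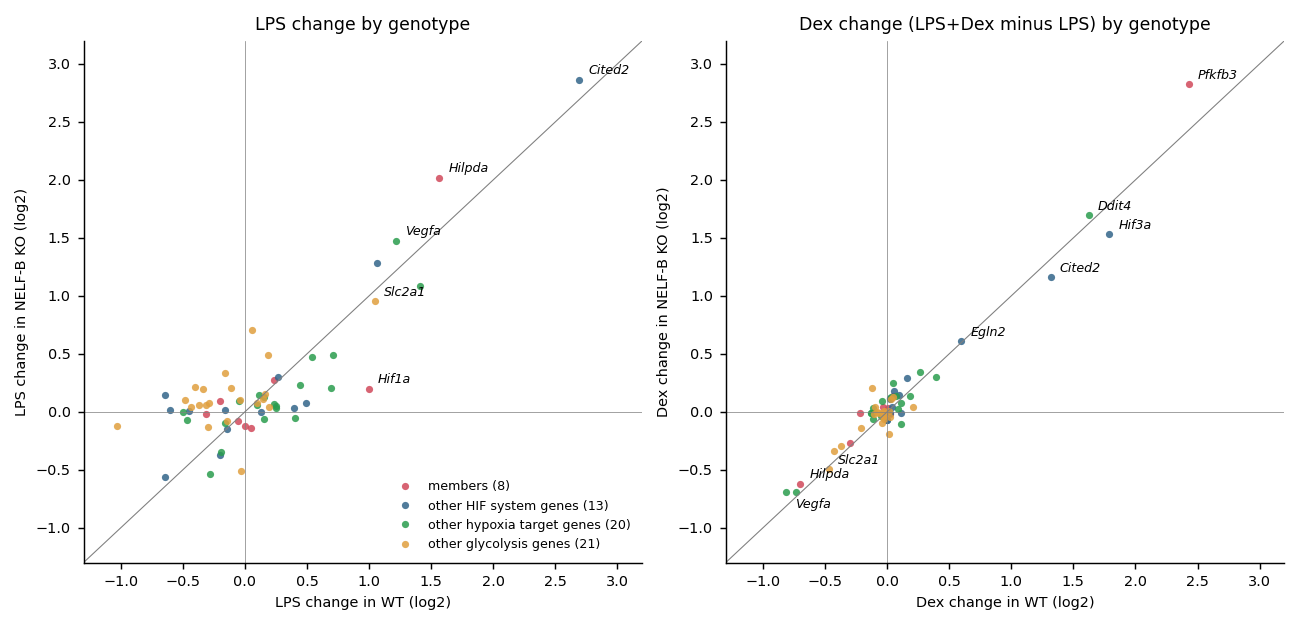
LPS change (left) and Dex change (right) of the 8 genes (red) and of 13 HIF system genes (blue), 20 hypoxia targets (green) and 21 glycolysis genes (orange), as fitted log2 change in WT (x axis) and NELF-B KO cells (y axis). The grey diagonal marks equal change. *Pfkfb3* lay at 2.43 and 2.83 for Dex, and *Hif1a* at 1.00 and 0.20 for LPS.

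Across the 16 libraries the 8 genes did not share 1 pattern. These correlations are descriptions, since libraries of a mouse and of a treatment are not independent. *Pgk1* and *Ldha* varied together (r = 0.95, and 0.88 without the untreated library of WT mouse A), and so did *Egln1* and *Bnip3* (r = 0.92 and 0.95). *Hif1a* was opposed to *Ldha* (r = -0.83) and *Pgk1* (r = -0.77) with all 16 libraries, but without the library that stood apart these values were -0.23 and -0.19. *Pfkfb3* had correlations between -0.35 and 0.35 with the other 7 genes.

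Over all genes of the table, the levels most like *Pfkfb3* were those of *Gdap2* (r = 0.98) and *Rnf103* (r = 0.97). *Gdap2* had Dex changes of +1.15 in WT and +1.41 in KO cells. It was picked for its likeness to *Pfkfb3*, whose levels varied mostly with Dex, so that this rise is not separate evidence. *Hilpda* was most like *Gtf2b* (r = 0.97) and *Metrnl* (r = 0.93), and *Hif1a* like *Cdk12* and *Lpin2* (r = 0.97 each). For *Ldha* and *Pgk1* the nearest genes were the glycolytic *Pkm* and *Eno1* in both cases (r = 0.96 to 0.97). *Egln1* was nearest to *Bnip3* and then to *Gfm2* (r = 0.91), *Bnip3* to *Il13ra1* (r = 0.94) and *Mtus1* (r = 0.93), and *Hk2* to *Rgl1* (r = 0.94) and *Stk40* (r = 0.92). This search used all 16 libraries and was not repeated without the untreated library of WT mouse A. That library held the highest *Pkm* (12.55) and *Eno1* (9.79) of all 16.

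**Figure D5:**
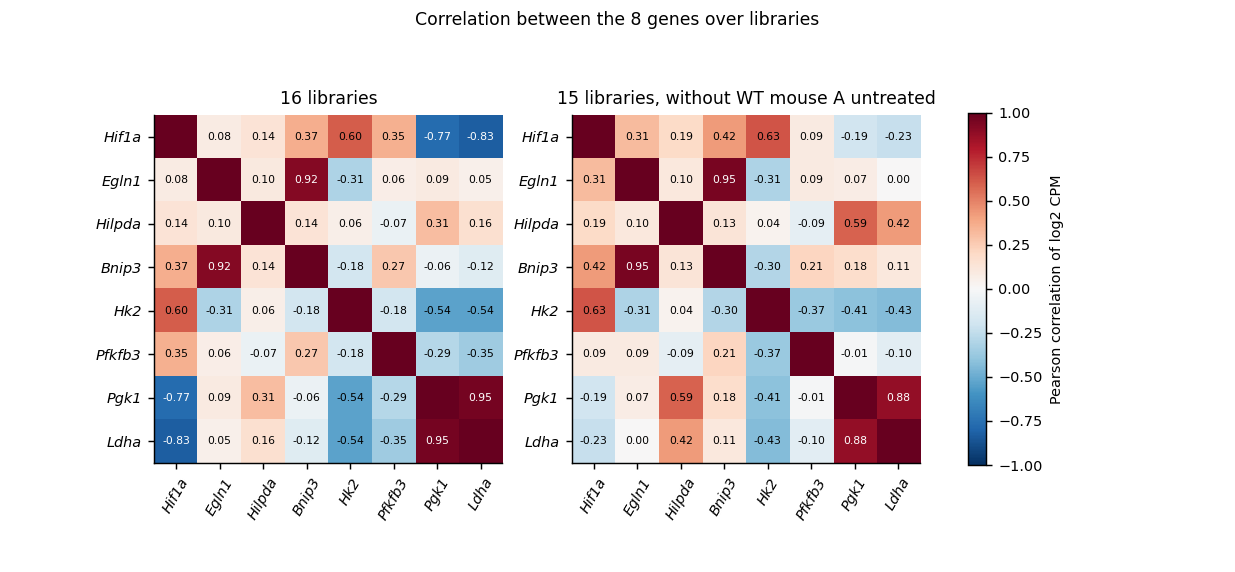
Pearson correlation of log2 CPM between the 8 genes (both axes) over all 16 libraries (left) and over the 15 that remain without the untreated library of WT mouse A (right), with red for positive and blue for negative values. The block of *Pgk1* and *Ldha* (0.95 and 0.88) and that of *Egln1* and *Bnip3* (0.92 and 0.95) were seen in both, and the negative values of *Hif1a* with *Ldha* went from -0.83 to -0.23.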

How the data were processed

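Per the study's methods and the labels, poly(A) RNA was sequenced as 50-base paired reads, mapped to mm10 with CLC Bio Genomic Workbench, and uniquely mapped exon reads were counted per gene. The submitters' processing notes also name CASAVA 1.8, FastQC and edgeR. The deposited values are log2 CPM, read counts that the authors scaled to library size with a weighted trimmed mean for 9614 genes. The filter that left these genes is not given in the sources used here. The deposited p-value and FDR columns of the authors' own comparisons were not used.

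Values were fitted over all genes with limma 3.58.1 in R 4.3.3 (lmFit, eBayes with trend, Benjamini-Hochberg adjustment, two-sided). LPS changes came from the 10 untreated and LPS libraries in 4 groups, Dex changes from the 12 LPS and LPS+Dex libraries with the mouse as a block, and genotype differences from the libraries of 1 treatment. The LPS and Dex comparisons share the LPS libraries. Calls needed an adjusted p under 0.1 and over 1.5-fold (LPS) or 1.3-fold (Dex), under 0.1 for differences between genotypes in a response, and under 0.05 and over 1.5-fold between genotypes. A fold change is a ratio of geometric means.

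The mouse was read from a number in the sample descriptions, which libraries of the 3 treatments share. That this number is an animal is a reading made here and is not stated in the labels. Deviations from group means had r of 0.781 to 0.939 between LPS and LPS+Dex libraries of a mouse, and 0.448 (WT) and 0.865 (KO) between untreated and LPS libraries. The letters A, B and C were given here, and mice of a letter in the 2 genotypes are different animals. Whole reads were recovered from the log2 CPM steps (100% of values under 3 CPM came within 0.1 of a whole read), and they served for depth and for a voom alternative. Exon lengths (GENCODE, GRCm38) were found for 95.8% of genes. The code of the fit was run on simulated data, with no mouse effect in the LPS and genotype fits, and the outcome is not given here. That run is therefore no evidence that the p-values of those fits hold for these libraries. Genes named were the 8, treatment checks, at most 4 called genes per list and comparison, *Vegfa*, *Slc2a1* and *Gapdh*, and the 2 genes most correlated with each of the 8, and *Dusp2* was added after its value was seen. The result of 1 listed gene is not reported here. The 8 genes and the lists were chosen with earlier results of these data known. Python 3.11.15 with numpy 2.4.6, pandas 2.3.3 and matplotlib 3.10.9 was used for the rest.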

Additional observations from a re-analysis of the deposited data

Results flagged for a closer look

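The Dex change of *Pfkfb3* differed between the genotypes in the test of the difference itself. It was 0.395 log2 units larger in NELF-B KO than in WT cells (SE 0.055, limma, adjusted p = 0.0539). Each of the 3 KO mice had a larger change than each of the 3 WT mice, and the share of all genes separated in this way was not computed. The call was lost when any of 4 of the 6 mice was left out (adjusted p, 0.123 to 0.211), and the adjusted p was 1 without the mouse as a block and with all 16 libraries.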

How the results depend on the processing

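Over all alternatives, 1701 of 1803 results for single genes were counted as the same, 46 lost a call and 34 gained one. The other 22 were uncalled values that changed sign by the SE of the main fit or more. Smaller changes of sign in uncalled values were counted as the same. No called direction reversed. Directions given above for values not called in the main fit describe these libraries and were not shown by that fit. Of the 8 genes, LPS called 0 in WT cells, 1 with all 16 libraries in 6 groups (*Hilpda*), 2 with the mouse as a replicate block (*Hilpda*, *Hif1a*), and 0 to 3 with 1 library left out. The 3, *Hif1a*, *Ldha* and *Pgk1*, came without the untreated library of WT mouse B, which left the library that stood apart as the only untreated WT one. The 1 call in KO cells became 0 with mice A and B only and 0 to 1 with 1 library left out. The difference in LPS response called 0, and 0 to 4 with 1 library left out, 4 again without that of WT mouse B. Dex called 2 in each genotype, but 1 (*Pfkfb3*) with all 16 libraries and 1 without the replicate block. The difference in Dex response called 1, but 0 with all 16 libraries, 0 without the block and 0 to 1 with 1 mouse left out. Between genotypes, untreated cells gave 0, and 0 to 4 with 1 library left out, and LPS+Dex cells gave 0, and 1 (*Pfkfb3*) with the letter as a block.

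Over all genes, LPS calls in WT cells went from 428 to 880 with 16 libraries, 234 with mice A and B, 178 within the genotype, 2008 with the block and 293 to 4466 with 1 library left out. In KO cells they went from 336 to 592 with the block and 172 to 442 with 1 left out, and the difference from 0 to 0 to 4258. Dex calls went from 438 to 249 with 16 libraries and 150 without the block in WT cells, from 511 to 290 and 178 in KO cells, and the difference from 2 to 0 in both and 1 to 11 with 1 mouse left out. Genotype calls, 0 in each treatment, were 3, 12 and 48 with the letter as a block, 2, 31 and 51 with all 16 libraries and the mouse as a random effect, up to 3905, 95 and 146 with 1 left out, 0, 1 and 3 with voom, and 0, 0 and 1 with median-centred libraries.

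A pseudocount of 1 CPM, a filter on low levels and median-centring changed no call among the 8 genes. With 2 untreated libraries per genotype, precision was low: the 2.96-fold LPS difference of *Hilpda* in WT cells did not pass. Leaving out an untreated library leaves 1 in its group, which is then assumed to vary like the others.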
